A study of Caenorhabditis elegans with 4 samples.

Results

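The flp and nlp genes of the nematode Caenorhabditis elegans encode neuropeptide precursors. With earlier results of these data known, they were chosen by symbol, as protein-coding genes whose symbol begins with flp- or nlp- and a digit. The RefSeq gene table of assembly WBcel235 held 109 of them, 31 flp and 78 nlp genes, among 19971 protein-coding genes on the 6 nuclear chromosomes. Peak lists came from late embryos of strain JA1597, in which a transgene placed by Mos-based insertion on chromosome IV makes CFP-1 joined to GFP under control of the dpy-30 promoter. Tagged CFP-1 is thus read from a promoter other than its own, and no list from worms without GFP was used here. Embryos were collected from bleached adults, aged for 3.5 hours and frozen, and whole embryos were used. Chromatin was immunoprecipitated with anti-GFP serum (CFP-1) or with anti-H3K4me3 antibody, each in a sample numbered RC03 and one numbered RC04. Both antibodies were used on the same strain and stage, so there is no condition to compare, and what was asked here is where along these genes the protein and the mark were called. Whether the samples RC03 and RC04 are separate cultures is not stated, and their agreement may be technical.

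Neuropeptides are cut from larger precursors in the secretory pathway, packed into dense core vesicles and released to act on receptors, most of them coupled to G proteins. The flp genes encode FMRFamide-like peptides, which end in an amidated arginine and phenylalanine, and the nlp genes encode a mixed set of other peptides that are neither FMRFamide-like nor insulin-like. Most are used by sets of neurons, while some nlp genes act in the intestine or, as antimicrobial peptides, in the epidermis. CFP-1 is the CXXC zinc finger subunit that brings the H3K4 methyltransferase complex COMPASS to DNA, and H3K4 trimethylation is a mark of active promoters.

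The 4 lists held 9216 and 9256 CFP-1 peaks and 11357 and 12343 H3K4me3 peaks. Each peak carries the authors' own score, the −log10 of either a p-value or a q-value, with medians of 12.09 in RC03 and 12.03 in RC04 for CFP-1, and of 6.84 in RC03 and 6.61 in RC04 for H3K4me3. Of all peaks, 49.0 to 51.2% per list lay within 500 bp of an end of a protein-coding gene. Read depth is unknown, because the files give no read counts. A gene was called for an antibody when both its lists had a peak within 500 bp of either end of the gene. Both ends were used because the gene table gives no strand, so the end at which transcription begins could not be told from the other. Peak positions are in build ce10 and gene ends in WBcel235. The chromosome lengths of these builds differ by about 100 bp at most, so distances below are approximate to that extent.

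Few neuropeptide genes had CFP-1 or H3K4me3 at their ends. Of the 109 genes, 6 were called for both antibodies, a share of 5.50% (95% exact binomial interval 2.05 to 11.6%), against 23.3% of the 19862 other protein-coding genes. CFP-1 was called at 7 neuropeptide genes, 6.42% (2.62 to 12.8%), against 26.1% of other genes. H3K4me3 was called at 6, the same 5.50%, against 30.8% of other genes. No peak of any of the 4 lists lay within 500 bp of 101 neuropeptide genes, a share of 92.7% (86.1 to 96.8%), and 61.6% of other genes likewise had none. The intervals cover counting error only, the genes are not replicates of a condition, and no test of the family against other genes was made. In whole embryos, a mark or protein present in few cells and one present at a low level in all cells cannot be told apart, and with read depth unknown a gene without a peak may still carry CFP-1 or the mark.

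The X chromosome stood at 0. It held 35 members, 13 flp and 22 nlp genes, and none of them had a peak of any list within 500 bp of an end. A count of 0 among 35 allows a share of up to 8.57%, where the limit for counts of 0, here and below, is 3 counts. The exact binomial interval used for other counts reaches 10.0% here. Among the 2695 other X-linked genes, 64.9% likewise had no peak of any list, and 19.5% were called for both antibodies. On the autosomes 6 of 74 members were called for both, 8.11% (3.03 to 16.8%), against 23.9% of other autosomal genes. By chromosome, the calls for both antibodies fell on 3 of 9 members on I, 2 of 14 on II and 1 of 21 on V, and on none of the 13 members on III and the 17 on IV, counts that allow shares of up to 23.1% and 17.6%. Among other genes, the corresponding shares were 34.1% on I, 23.6% on II, 34.7% on III, 21.7% on IV and 14.0% on V. The difference between X-linked and autosomal members was not tested.

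**Figure D1:**
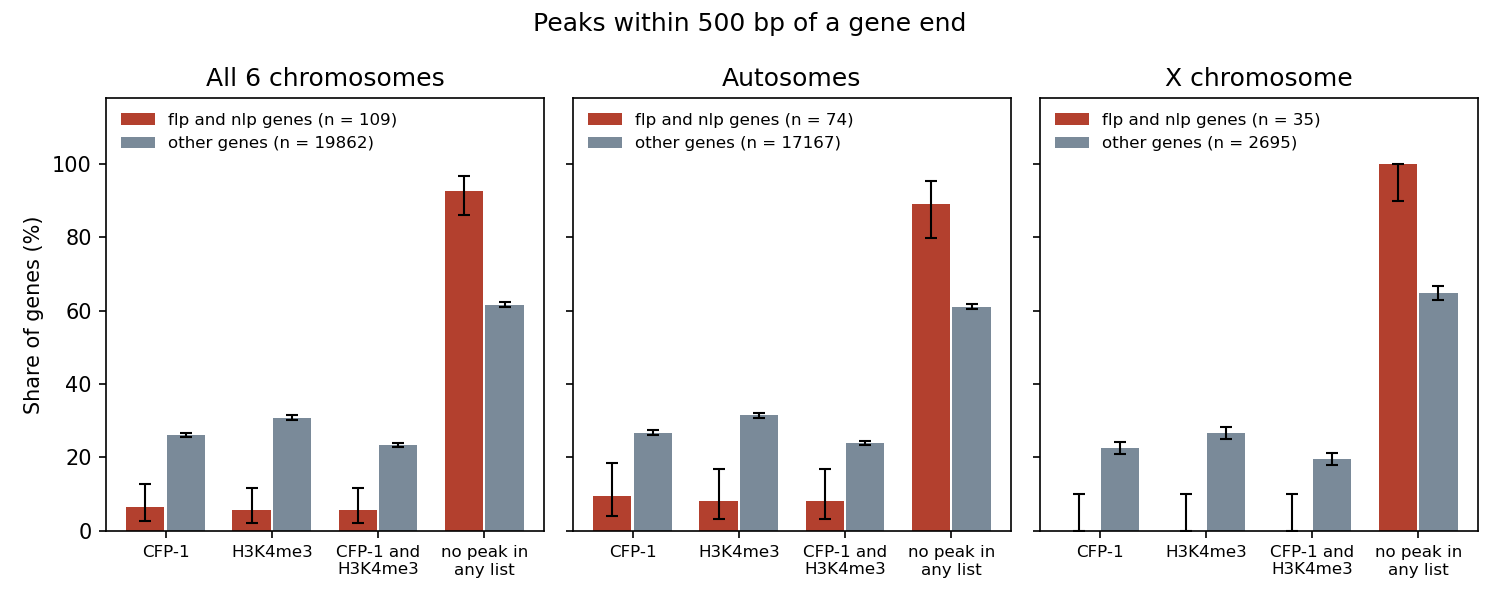
Share of flp and nlp genes (red) and of other protein-coding genes (grey) that had a peak in both lists of CFP-1, of H3K4me3, of both, or no peak in any of the 4 lists, within 500 bp of a gene end. The vertical axis is in percent of genes, bars start at 0, and error bars are 95% exact binomial intervals. The red bar for both antibodies stands at 5.50% against 23.3% for other genes, and at 0 on X.

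Gene length and spacing, as features of gene layout, differed between members and other genes. Neuropeptide genes were shorter, with a median length of 1018 bp (quartiles 653 and 2097 bp) against 2012.5 bp (1212 and 3595.5 bp) for other genes. They also had fewer close neighbours, since 43.1% had an end of another protein-coding gene within 500 bp, against 61.4% of other genes. Among genes of up to 1000 bp, 2 of 51 members (3.92%, 0.48 to 13.5%) and 20.6% of other genes were called for both antibodies. From 1001 to 2000 bp the counts were 0 of 29 members, which allows up to 10.3%, and 19.3% of other genes. Between 2001 and 4000 bp they were 2 of 19 (10.5%) and 24.4%. Above that length they were 2 of 10 members and 29.9%. With no other gene end within 500 bp, 3 of 62 members (4.84%, 1.01 to 13.5%) and 15.2% of other genes were called for both. With such a neighbour, 3 of 47 members (6.38%, 1.34 to 17.5%) and 28.4% of other genes were. The share among members was the lower one in each of these classes, some of which hold few members. In the classes above 2000 bp, the intervals of the members include the shares of other genes. The differences within classes were not tested.

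The 8 members with any peak nearby fell into a group of 4 with high scores and a group of 4 with low or incomplete calls. The highest mean CFP-1 rank was that of nlp-40 on chromosome I, which encodes an intestinal peptide that times the defecation motor program by acting on AEX-2 in GABA neurons. Its CFP-1 score was 178.1 in RC03, at positions 16688 to 17274, and 187.4 in RC04, at 16723 to 17347. Both CFP-1 peaks covered the gene's higher end, and in their lists they ranked at the percentiles 99.5 and 99.3. Its H3K4me3 score was 43.4 in RC03 (16313 to 17347) and 77.3 in RC04 (16335 to 17441), at percentiles 81.1 and 95.4, so the mark lay over the same end. The nearest end of another gene, that of rcor-1, a CoREST corepressor gene, lay 43 to 210 bp outside these 4 peaks.

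On the same chromosome, nlp-4 also had strong peaks of both antibodies over its own ends. It had a CFP-1 peak at each end. That at the lower end scored 137.0 in RC03 (10516987 to 10517376) and 155.6 in RC04 (10516946 to 10517627), and the one at the higher end scored 90.6 (10517909 to 10518258) and 91.6 (10517894 to 10518325). H3K4me3 ran from within the gene past its higher end, with a score of 80.2 in RC03 (10517570 to 10518758) and 63.7 in RC04 (10517384 to 10518787). These were the widest H3K4me3 peaks of the family, 1189 and 1404 bp, a mean of 1296 bp. They also covered an end of the neighbouring gene exos-3, which encodes a subunit of the RNA exosome. Ends of both genes thus lay under the mark, and to which of them it belongs was not tested.

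At nlp-15 and flp-16 the strong peaks covered an end of the next gene. The FMRFamide-like gene flp-16 on chromosome II had CFP-1 334 to 351 bp beyond its higher end, with scores of 143.5 in RC03 (13237768 to 13238144) and 160.4 in RC04 (13237751 to 13238253). Its H3K4me3 scores were 50.4 in RC03 (13237610 to 13238322) and 43.6 in RC04 (13237463 to 13238235). The neighbouring gene romo-1, for a mitochondrial inner membrane protein, has its lower end inside flp-16 in the gene table. These 4 peaks covered the higher end of romo-1, and which of its ends is the start could not be told. A further small H3K4me3 peak of RC03 (13237446 to 13237544, score 4.51) lay 29 bp from flp-16. Likewise nlp-15, on chromosome I, had CFP-1 scores of 162.0 (12995569 to 12995961) and 191.2 (12995601 to 12996208) at 94 and 126 bp from its higher end. Its H3K4me3 peaks, with scores of 61.8 (12995434 to 12996606) and 53.7 (12995472 to 12996466), reached over that end. An end of smu-1, a splicing factor gene, lay inside all 4 of these peaks and was nearer to each peak's midpoint than the end of nlp-15.

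Scores were low at nlp-31 and nlp-99. The epidermal gene nlp-31 on chromosome V, of the infection-induced nlp-29 cluster of antimicrobial peptide genes, had CFP-1 scores of 5.16 in RC03 (3979912 to 3980051) and 7.07 in RC04 (3979847 to 3980098). Its H3K4me3 peaks, 109 and 93 bp wide with scores of 3.29 and 3.52, lay inside the gene at different positions in both lists (3980389 to 3980497 and 3980168 to 3980260), so the lists did not place the mark at the same site. The other 5 genes of the cluster, nlp-27, nlp-28, nlp-29, nlp-30 and nlp-34, had no peak. On chromosome II, nlp-99 had CFP-1 scores of 15.6 (2716826 to 2717061) and 6.44 (2716831 to 2717066). Its H3K4me3 scores were 1.66 (2716852 to 2716964) and 5.24 (2716862 to 2717023). These peaks lay within nlp-99, 369 to 471 bp from its higher end. The gene nep-2, for a neprilysin-type peptidase, overlaps nlp-99 there, and one of its ends was nearer to the peaks, at 271 to 307 bp.

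Calls were incomplete at flp-1 and flp-23. The peptide gene flp-1, known for its part in locomotion, lies on chromosome IV and was called for CFP-1 with low scores of 8.32 in RC03 (9146201 to 9146354) and 3.31 in RC04 (9146230 to 9146357). Its H3K4me3 peak in RC04 had a score of 45.6 (9146615 to 9147768) and began 487 bp from the gene's higher end. The corresponding RC03 peak, with a score of 44.6 (9146710 to 9147631), began at 582 bp and so fell outside the limit of 500 bp. An end of rpb-12, an RNA polymerase subunit gene, lay inside both CFP-1 peaks, and one of aly-2, an mRNA export factor gene, inside the H3K4me3 peak. At flp-23 on chromosome III, H3K4me3 was called in RC04 alone, with a score of 8.32 (8650444 to 8650643), while the nearest RC03 peak was 16070 bp away.

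**Figure D2:**
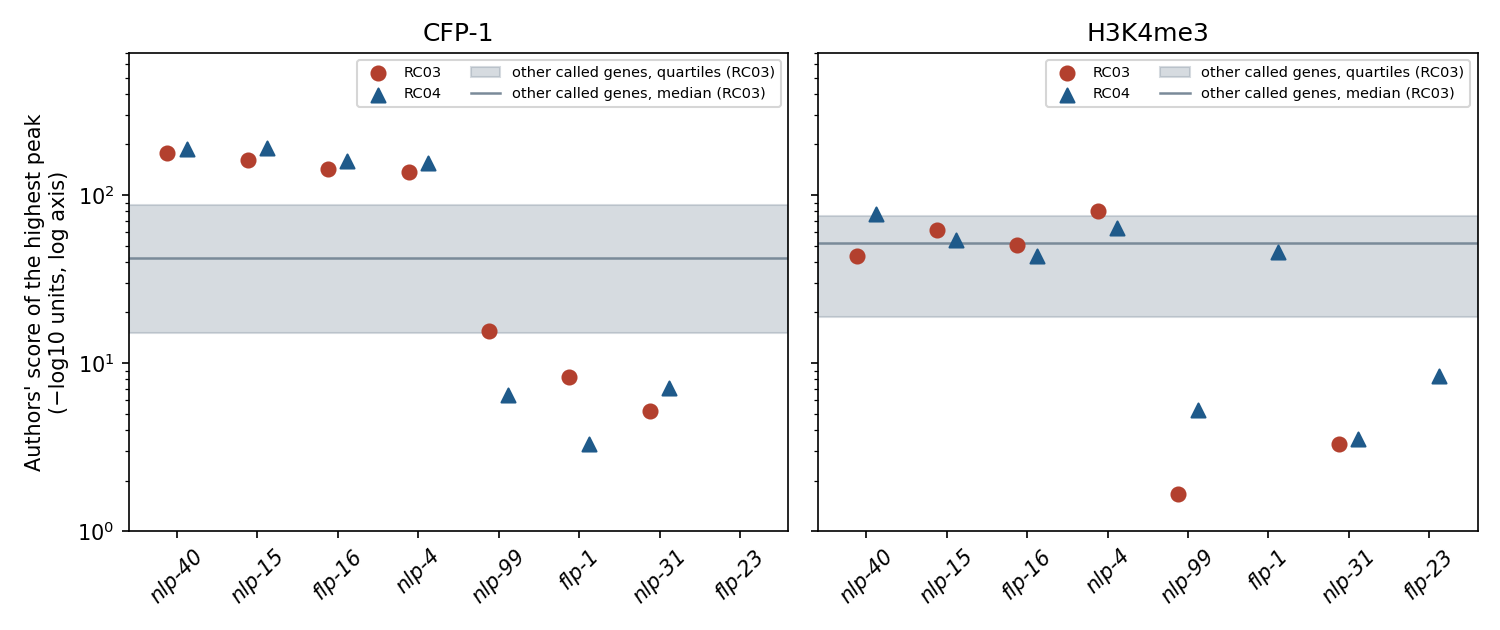
The authors' score of the highest peak within 500 bp of a gene end (vertical, −log10 units on a log axis) for the 8 members with any peak, in the RC03 lists (circles) and the RC04 lists (triangles). The grey band and line give the quartiles and the median of other genes called for the same antibody, in RC03. For CFP-1, nlp-40, nlp-15, flp-16 and nlp-4 lie above the band, and for H3K4me3 no point of these 4 lies below it.

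As levels, the CFP-1 peaks of nlp-40, nlp-15, flp-16 and nlp-4 scored 137.0 to 178.1 in RC03 and 155.6 to 191.2 in RC04, whereas the other 5186 genes called for CFP-1 had medians of 42.3 and 44.4 with upper quartiles of 87.2 and 93.5. The 3 remaining CFP-1 calls scored 5.16 to 15.6 in RC03 and 3.31 to 7.07 in RC04, with 2 of the RC03 values and all RC04 values below the lower quartiles of 15.1 and 15.2. Over the 7 members called for CFP-1, the median of the mean percentile rank in both lists was 97.1 (lowest 22.02, highest 99.4), beside 77.6 (quartiles 55.4 and 90.3) over other called genes. The H3K4me3 rank over the 6 members called for the mark had a median of 85.5 (17.9 to 92.7), beside 84.8 (70.9 and 93.0) over other genes. H3K4me3 peaks at these members had a median width of 907 bp (101 to 1296 bp), beside 1055 bp (621 and 1463 bp). The corresponding CFP-1 width was 440 bp (141 to 606 bp), beside 362.5 bp (269.5 and 476.5 bp). These medians mix a high and a low set of members and stand on 6 or 7 genes.

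For the 101 members without a peak within 500 bp, the nearest peak of any list lay between 687 bp (nlp-17) and 40532 bp (nlp-13) from a gene end. On X they were flp-2, flp-3, flp-5, flp-7, flp-8, flp-11, flp-12, flp-18, flp-19, flp-20, flp-26, flp-28, flp-32, nlp-1, nlp-2, nlp-3, nlp-6, nlp-7, nlp-14, nlp-19, nlp-22, nlp-23, nlp-45, nlp-49, nlp-53, nlp-57, nlp-61, nlp-64, nlp-66, nlp-67, nlp-76, nlp-90, nlp-91, nlp-101 and nlp-119. Autosomal flp genes without a peak were flp-4, flp-6, flp-9, flp-10, flp-13, flp-14, flp-15, flp-17, flp-21, flp-22, flp-24, flp-25, flp-27, flp-33 and flp-34. The autosomal nlp genes were nlp-5, nlp-8 to nlp-13, nlp-16, nlp-17, nlp-18, nlp-20, nlp-21, nlp-24 to nlp-30, nlp-32 to nlp-36, nlp-39, nlp-41, nlp-43, nlp-46, nlp-47, nlp-48, nlp-50, nlp-51, nlp-52, nlp-55, nlp-56, nlp-58, nlp-59, nlp-60, nlp-62, nlp-63, nlp-68 to nlp-71, nlp-78 to nlp-82, nlp-88 and nlp-89, within the symbols that the gene table holds.

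Among the peptides of sleep, the RIS neuron gene flp-11 had its nearest CFP-1 peaks at 14515 bp in RC03 and 14532 bp in RC04, and its nearest H3K4me3 peaks at 14699 and 14643 bp. The sleep peptide genes of the ALA neuron, flp-13 and nlp-8, were at least 10819 and 12336 bp from any peak. For nlp-22, which promotes quiescence during moults, the nearest peak of any list was 7027 bp away. All 4 genes thus lay far outside the limit in every list.

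Among peptides that act in other neurons, the distances ranged more widely. For flp-18 and flp-21, which encode ligands of the receptor NPR-1, the nearest peaks of any list were at 2872 and 5858 bp. In the case of flp-20, used by touch neurons, CFP-1 lay at 1417 and 1396 bp and H3K4me3 at 1334 and 1430 bp, so all 4 lists had a peak within 2000 bp. It was the 1 of 35 X-linked members of which this was true, beside 31.9% of other X-linked genes. The olfactory peptide gene nlp-1 was at least 10259 bp from any peak, nlp-9 at least 23756 bp and flp-8 1336 bp. The cholecystokinin-like peptide gene nlp-12 of the stretch-sensitive neuron DVA, on chromosome I, came closest among these, with strong H3K4me3 peaks at 749 bp in RC03 (score 62.8, 1841798 to 1842635) and 779 bp in RC04 (score 59.8, 1841733 to 1842605) and CFP-1 at 1036 and 1045 bp. For the antimicrobial gene nlp-29, the nearest peak lay at 3928 bp.

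Distances to the nearest peaks were also longer for the members on a larger scale. The distance within which all 4 lists had a peak had a median of 8817 bp (quartiles 4237 and 15952 bp) over the members and 4708.5 bp (677 and 13412 bp) over other genes. For members on X the median was 12266 bp, beside 5183 bp for other X-linked genes, and on autosomes it was 7525.5 bp, beside 4640 bp. Within 1000 bp, 7 members (6.42%) and 28.1% of other genes had peaks of all 4 lists. At 2000 bp the figures were 13 (11.9%) and 35.6%, at 5000 bp 34 (31.2%) and 51.4%, and at 10000 bp 59 (54.1%) and 67.7%. A peak of at least 1 list lay within 10000 bp of 76.1% of members and 86.0% of other genes. No list at all had a peak within that distance of 26 members, beside 2774 of the 19862 other genes. The most remote members were nlp-13 on V, at 40532 bp, and flp-26 on X, at 36002 bp. Just outside the limit, from 500 to 1000 bp, lay H3K4me3 peaks of nlp-12, nlp-17, nlp-76 and, in RC03, flp-1, and CFP-1 peaks near nlp-34, which are the same peaks as those of nlp-31.

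**Figure D3:**
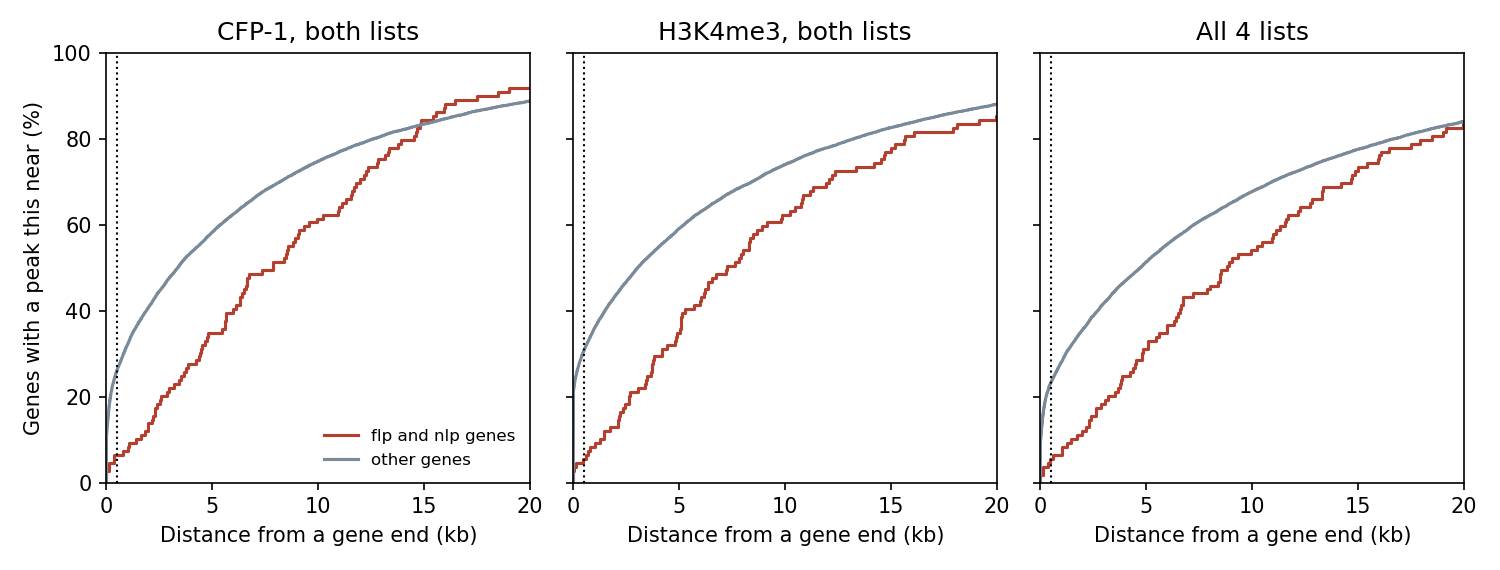
Cumulative share of genes (vertical, percent) with a peak of both CFP-1 lists, of both H3K4me3 lists or of all 4 lists within a given distance of a gene end (horizontal, kb). Red is the flp and nlp genes, grey the other genes, and the dotted line marks 500 bp. At 5 kb the curve for all 4 lists is at 31.2% for members and 51.4% for other genes.

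Genes next to neuropeptide genes were called at rates close to those of other genes. Of the 191 genes immediately beside a member that are not members themselves, 43 were called for both antibodies, 22.5% (16.8 to 29.1%). On X these were 9 of 56, 16.1% (7.62 to 28.3%), and on autosomes 34 of 135, 25.2% (18.1 to 33.4%). Among the 71 members with no adjacent gene called for both antibodies, 1 was itself called, nlp-31. Among the 38 with at least 1 such adjacent gene, 5 were, which are nlp-40, nlp-4, nlp-15, nlp-99 and flp-16. Adjacent genes can share a peak, so these counts are not independent of each other. The same split was not made for other genes, so it cannot be read as particular to the members.

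Genes that act with the neuropeptides, and other peptide genes, were counted in the same way. Of 106 receptor genes chosen by symbol, 6 were called for both antibodies, 5.66% (2.11 to 11.9%): dmsr-4, frpr-14, gnrr-1, gnrr-5, nmur-3 and tkr-2. The highest CFP-1 scores of these were at nmur-3, a neuromedin U receptor homologue on X, with CFP-1 scores of 130.4 and 156.1 and H3K4me3 scores of 66.4 and 61.9 in RC03 and RC04. Of 39 insulin-like peptide genes, 3 were called for both, 7.69% (1.61 to 20.9%), namely ins-13, ins-17 and ins-37. Of these, ins-17 had the highest CFP-1 score in RC03, at 173.5, and the lowest in RC04, at 19.9. Its H3K4me3 scores were 103.7 in RC03 and 108.1 in RC04. None of the other 6 peptide genes found, pdf-1, pdf-2, ntc-1, snet-1, capa-1 and lury-1, had a peak, and a count of 0 among 6 allows up to 50.0%. All these values stand beside the 23.3% of genes other than flp and nlp.

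The machinery that makes and releases the peptides had a share near that of other genes. Of 15 genes for processing enzymes and dense core vesicle release, 4 were called for both antibodies, 26.7% (7.79 to 55.1%), and 7 had no peak at all. Those called were hid-1, needed for sorting into dense core vesicles, egl-21, the carboxypeptidase E that trims cut peptides, sbt-1, the chaperone of the convertase EGL-3, and unc-108, the Rab2 GTPase. On X, hid-1 had CFP-1 scores of 100.5 and 106.3 and H3K4me3 scores of 59.7 and 58.2. At egl-21 the CFP-1 scores were 25.8 in RC03 and 32.9 in RC04, and the H3K4me3 scores 10.1 in RC03 and 18.1 in RC04. The CFP-1 scores of sbt-1 were 24.3 and 17.9, and its H3K4me3 scores 27.1 and 22.8. Both genes thus scored below hid-1 in all 4 lists. The lowest scores of the 4 called genes were at unc-108, with CFP-1 at 12.7 in RC03 and 6.21 in RC04. Its H3K4me3 scores were 5.01 in RC03 and 4.62 in RC04. All but its RC03 CFP-1 score lay below the median of their list. In contrast, the convertase gene egl-3, unc-31, whose product CAPS primes dense core vesicles, and rab-3 had no peak in any list. Of 16 pan-neuronal genes, which include these last 3, 6 were called for both, 37.5% (15.2 to 64.6%): ehs-1, maco-1, ric-19, snb-1, unc-11 and unc-18. The intervals of the processing and release genes and of the pan-neuronal genes include the 23.3% of other genes, while those of the receptors and the insulin-like genes lie below it. The lists were not tested against other genes or each other.

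**Figure D4:**
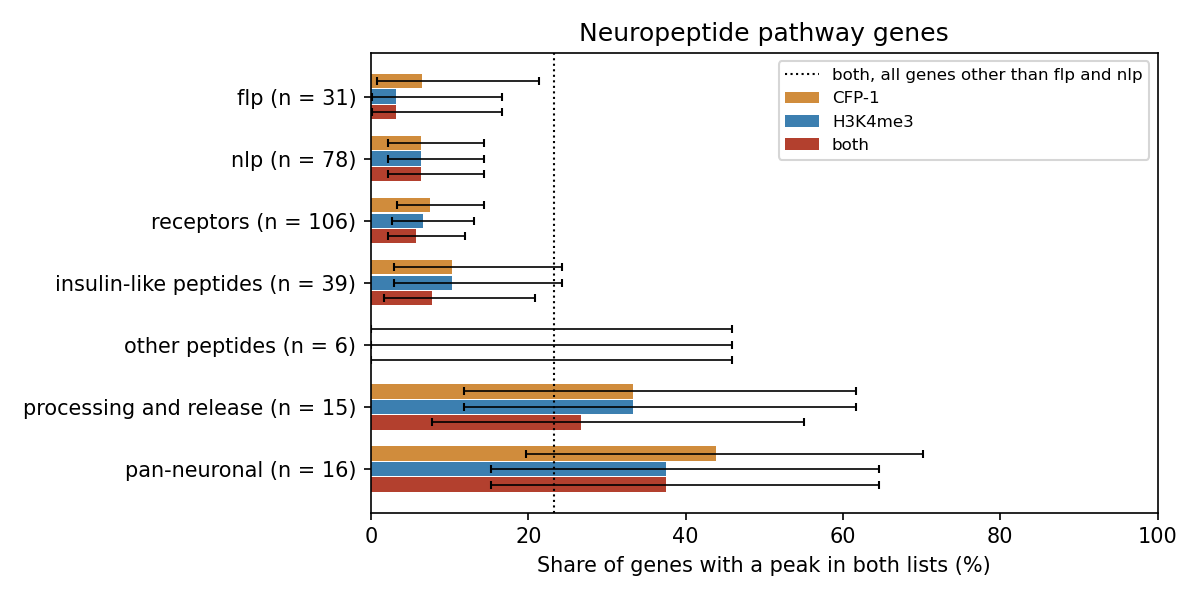
Share of genes in each list (horizontal, percent) with a peak in both lists of CFP-1, of H3K4me3 or of both antibodies within 500 bp of a gene end, with 95% exact binomial intervals. The dotted line marks 23.3%, the share called for both antibodies among all genes other than flp and nlp. Receptors (5.66%) and nlp genes (6.41%) lie left of the line, and pan-neuronal genes (37.5%) lie right of it with an interval that includes it.

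Where a peak was given only to the gene whose end was nearest, 3 members stayed called for both antibodies, nlp-40, nlp-4 and nlp-31, against 13.1% of other genes. The one flp gene called for both, flp-16, was then no longer called, since all of its peaks but the small H3K4me3 peak of RC03 were nearer to an end of romo-1. In the same way 1 receptor gene, 2 insulin-like genes, 3 processing and release genes and 5 pan-neuronal genes stayed called.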

How the data were processed

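ChIP-seq libraries were made from formaldehyde-fixed, sonicated late embryos, per the labels' protocols. The authors aligned reads with BWA to ce10 and called peaks with MACS2 2.0.10, per the submitters' processing notes. Each of the 4 deposited lists belongs to 1 sample. The deposited score is a −log10 p-value or q-value per peak; no source used here says which, or gives the control, threshold or handling of duplicates. The score rises with depth and width, so it was ranked within a list only. Peak names carry a larval stage abbreviation, while all labels give late embryos, which were followed.

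Symbols and gene ends came from a RefSeq table of WBcel235. The planned distance to transcript starts became the distance to the nearer gene end, since that table has no strand. A peak was assigned when it lay within 500 bp of an end, and the highest scored one stood for the gene. The code was tested on simulated data, and all 31290 gene and peak pairs were those of bedtools 2.31.1. Zero counts were given the limit of 3 counts. Members, lists and tests were chosen with earlier results of these data known. Named genes were the highest ranked and widest members, 14 known from single-peptide work, and all members by class. The gene lists came from symbols; 1 gene of the other peptides was not found. CpG content and sequences were not analysed here. Scripts ran in Python 3.11.15 with pandas 2.3.3 and numpy 2.4.6, intervals came from scipy 1.17.1, and plots were drawn in matplotlib 3.10.9.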

Additional observations from a re-analysis of the deposited data

How the results depend on the processing

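Of 117 values under alternative settings, 86 kept within 1.5 times of the reported count or within the spread between lists of a median. The exceptions follow, in the order of members called for both antibodies, for CFP-1 and for H3K4me3, then the percentage of other genes called for both (reported as 6, 7, 6 and 23.3%). With the gene end itself inside the peak they were 2, 2, 3 and 9.08%. Counting a peak only for the gene with the nearest end gave 3, 3, 3 and 13.1%, by construction fewer. The lower gene end alone gave 2, 2, 2 and 13.1%, and the higher end alone 13.5% of other genes. Windows of 2000 bp gave 13, 15, 14 and 35.6%, with 1 of 35 members on X called for both, beside 31.9% of other X-linked genes. Windows of 5000 bp gave 34, 38, 38 and 51.4%, with 5 members on X called for both, beside 48.9% of other X-linked genes. At 5000 bp, 60 members and 5529 of the 19862 other genes were without any peak. With peaks scored above their list's median, CFP-1 was called at 4 members, without nlp-31, nlp-99 and flp-1. Moving all gene ends by 100 bp in either direction left 6 members called for both; in one direction flp-1 replaced nlp-99. The median H3K4me3 width of 907 bp was 753.5 bp for the peak nearest to an end, 855.5 and 1071 bp in windows of 1000 and 250 bp, and 874 and 884 bp in RC03 and RC04 alone. The median CFP-1 rank of 97.1 was 90.8 within 1000 bp. Taking the sample number as a replicate block, a CFP-1 list paired with its same-numbered H3K4me3 list gave a mean of 6.5 members with both, and pairs of unlike number also gave 6.5. Single ends, peaks anywhere in a gene, all 4 lists at the same gene end, and windows of 2000 and 5000 bp were chosen after seeing the data. A single outermost start and CpG counts were not run. Read depth is unknown and limits all absences.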
